A study of Mus musculus with 16 samples.

Results

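Matrix metalloproteinases (MMPs) are zinc-dependent proteases that cut the proteins of the extracellular matrix and many proteins at the cell surface. Of the 49568 gene symbols in the deposited count table, 10 belonging to this family were described across 4 groups of mouse flexor tendon: Mmp2, Mmp3, Mmp9, Mmp10, Mmp11, Mmp12, Mmp13, Mmp14, Mmp19 and Mmp23. They were picked by symbol, with earlier results of these data known. All 10 symbols were found, and 13 further symbols of the family were read beside them.

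MMPs are made as inactive proenzymes, are opened by other proteases such as plasmin, furin or other MMPs, and are held in check by the tissue inhibitors of metalloproteinases (TIMPs). In tendon they take part in the removal of damaged collagen and in the remodeling of scar. Stromal cells such as fibroblasts and infiltrating leukocytes make different members, and the genes of several secreted members carry a binding motif for the transcription factor AP-1 (dimers of the Fos and Jun families) shortly before their start.

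RNA-seq was available for 16 libraries from male young adult mice, with 4 libraries in each group: uninjured tendon of C57BL/6J (C57) mice, injured C57 tendon, uninjured tendon of MRL/MpJ (MRL) mice and injured MRL tendon, with the injured tendons taken at day 7. C57 is a common inbred strain, and MRL is an inbred strain studied for its healing with little scar. The deep flexor tendon of a hind paw digit was cut through part of its width, and each library came from a single tendon whose sheath and peritendinous tissue had not been removed. Injured libraries bear no replicate number and are given by their label (for C57 BI-181, BI-183, BI-184, BI-185; for MRL BI-270, BI-272, BI-274, BI-275). No cell was sorted, so fewer cells of a type and less RNA per cell cannot be told apart in any value below.

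Total counts ranged from 12552424 to 17832908 in the 12 libraries outside the injured MRL group while injured MRL libraries had 18524170 to 23741648. Levels are given in CPM (counts scaled to a common library total), and 3 counts, the floor used for a fold against a group at 0, correspond to 0.124 to 0.239 CPM. Values under it are printed as measured. Several libraries stood apart. BI-275 had 17877 genes detected, against 18558 to 20209 in the other injured libraries, and the lowest total of its group. In uninjured C57 replicate 4, with 16424 genes detected, the fewest of all, 8 epidermal keratinocyte markers took 8.44% of all counts. In BI-181, 8 skeletal muscle markers took 4.66% (48070 CPM). In BI-183 these muscle markers summed to 1407 CPM with 0 of 8 at 0, and in the other 14 libraries to at most 13.4 CPM. Uninjured C57 replicate 3 had a summed level of 8 neutrophil markers of 136 CPM, against 0.325 to 19.7 CPM in the other uninjured C57 libraries, but Ly6g, Mpo, Elane, Camp and Ltf were at 0 in it. Its keratinocyte markers summed to 698 CPM, against 27.1 and 24.7 CPM in replicates 1 and 2. In uninjured MRL replicate 1 the keratinocyte markers summed to 598 CPM, against 16.3 to 41.3 CPM in the other uninjured MRL libraries. The library labelled uninjured MRL replicate 4 had Spearman correlations of counts, over the 15947 genes of the fit to all libraries, of 0.93 to 0.94 with the other uninjured MRL libraries and of up to 0.96 with an uninjured C57 library, where the other uninjured MRL libraries reached 0.94 or 0.95. Its 7 chondrocyte markers summed to 451 CPM, within the 424 to 556 CPM of the other uninjured MRL libraries and above the 159 to 272 CPM of uninjured C57, and whether its label holds was not tested. The 7 tendon fibroblast markers summed to 7964 to 37210 CPM over the libraries. Of these, Fmod, Col1a1 and Thbs4 had group means of 1407 to 12220 CPM. Scx, Tnmd and Mkx had group means of 50.1 to 200 CPM, and Kera was at 0 in uninjured C57 replicate 1.

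Mmp13, Mmp12, Mmp3 and Mmp10 lie in a row of MMP genes on chromosome 9, and the bases just before their starts are shown because Mmp3, the member called higher in injured MRL than in injured C57, is among them. The windows are the 120 bases before the RefSeq start on GRCm38, all on the plus strand, at chr9:7272394-7272513 for Mmp13, chr9:7347254-7347373 for the second annotated start of Mmp12, chr9:7445702-7445821 for Mmp3, chr9:7502222-7502341 for Mmp10 and chr14:54431478-54431597 for Mmp14, which is shown as a member outside the row. Capitals mark the AP-1 motif TGAGTCA (or TGACTCA, its reverse complement) and the TATA motif TATAAA.
Mmp13: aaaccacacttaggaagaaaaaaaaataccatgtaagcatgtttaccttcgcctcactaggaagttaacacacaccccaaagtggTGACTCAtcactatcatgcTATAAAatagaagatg
Mmp12: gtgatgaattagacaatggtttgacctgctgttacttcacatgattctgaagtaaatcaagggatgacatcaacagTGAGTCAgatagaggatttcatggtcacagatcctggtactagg
Mmp3: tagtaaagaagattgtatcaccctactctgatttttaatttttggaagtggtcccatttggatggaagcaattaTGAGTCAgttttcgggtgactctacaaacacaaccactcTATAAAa
Mmp10: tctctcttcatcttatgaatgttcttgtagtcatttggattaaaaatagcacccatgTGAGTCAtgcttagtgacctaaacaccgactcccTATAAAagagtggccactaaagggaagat
Mmp14: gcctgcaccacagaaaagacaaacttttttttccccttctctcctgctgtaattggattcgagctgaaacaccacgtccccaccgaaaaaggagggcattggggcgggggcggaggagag

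The AP-1 motif began 35 bases before the start in Mmp13, 44 in Mmp12, 46 in Mmp3 and 63 in Mmp10. TATAAA followed it in Mmp13, Mmp3 and Mmp10, at 16, 7 and 29 bases before the start. The Mmp12 window lies inside the gene as GENCODE draws it, with 0 of its bases in an exon, and the window before the first annotated start of Mmp12 held neither motif. RefSeq windows were available for 9 starts of 7 members, and those of Mmp11, Mmp14 and Mmp23 held neither motif. Over 32851 annotated starts, searched on both strands, 2.3% of windows held TGAGTCA, 6.34% held TATAAA and 0.213% held both. A match is a run of letters and was not tested as a binding site.

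The gelatinase Mmp2, which cuts denatured collagen and basement membrane, was the most abundant member per exon length (RPKM, the CPM per kilobase of exon) in 3 of the groups. It lies on chromosome 8 (chr8:92827291-92853420, plus strand, GRCm38). Mmp2 was at 157, 153, 146 and 128 CPM in uninjured C57 replicates 1 to 4 and at 379, 655, 240 and 715 CPM in BI-181, in BI-183, in BI-184 and in BI-185. All injured C57 libraries lay above all uninjured ones, and Mmp2 rose 3.39-fold (log2 fold change 1.76, SE 0.34, edgeR quasi-likelihood test, adjusted p = 0.0484). In MRL it was at 414, 603, 573 and 143 CPM in uninjured replicates 1 to 4 and at 292, 272, 484 and 262 CPM in BI-270, in BI-272, in BI-274 and in BI-275. These groups overlapped (log2 fold change -0.39, SE 0.38, edgeR adjusted p = 0.538), and without the library labelled uninjured MRL replicate 4 the log2 fold change was -0.67 (edgeR adjusted p = 0.132). Leaving out 1 library at a time, the C57 call was kept in 2 of 8 fits, those without uninjured C57 replicate 4 or BI-184, and lost without any other library, with log2 fold changes of 1.56 to 2.02.

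After injury the log2 difference of MRL against C57 in Mmp2 was -0.66 (SE 0.36, edgeR adjusted p = 0.322) and was not called. Uninjured MRL replicates 1, 2 and 3 lay above every uninjured C57 library, and replicate 4 lay within the C57 range. The log2 difference between the uninjured strains was 1.55 (SE 0.38, edgeR adjusted p = 0.621). Without the library labelled uninjured MRL replicate 4, it was 1.86 and was called (edgeR adjusted p = 0.0427), with a mean of 530 ± 102 CPM (SD, n = 3). The injury effects on Mmp2 differed between strains by -2.21 on the log2 scale (SE 0.55). edgeR did not call this difference (adjusted p = 0.333), and DESeq2 did (adjusted p = 0.0177).

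The other gelatinase, Mmp9, a product of neutrophils, osteoclasts and activated macrophages, was low and uneven. It lies on chromosome 2 (chr2:164940780-164955850, plus strand). Mmp9 had 1028 counts over the injured MRL libraries, 912 of them in BI-275 (50.6 CPM), 111 in BI-272 (5.08 CPM), 5 in BI-274 and 0 in BI-270, against 0 counts in every uninjured MRL library. The injured MRL mean was at least 66.9-fold higher than the floor of 3 counts per uninjured library, although 1 injured library had none. Without BI-275 the bound was 8.47-fold, from 116 counts. In C57 it was at 20.7 CPM in uninjured replicate 3, at 1.48 CPM in uninjured replicate 1 and at 0 to 1.51 CPM in the injured libraries. The log2 fold change in C57 was -2.79 (SE 1.93, edgeR adjusted p = 0.535) and became 0.67 without uninjured C57 replicate 3. In BI-275 the 8 neutrophil markers summed to 27.5 CPM, against 1.24 to 8.43 CPM in the other injured MRL libraries, with Ly6g, Mpo, Elane and Ltf at 0. Osteoclast markers, 7 in all, summed to 434 to 630 CPM in injured MRL, highest in BI-275, and to 166 to 212 CPM in uninjured MRL. In C57 these markers summed to 97.1 to 196 CPM before and to 246.5 to 620.7 CPM after injury. In injured MRL Ctsk alone averaged 477 CPM, and Calcr and Oscar had 0 counts in every library. Of these 7 markers, 3 rose in MRL, beside 5.25% of all genes tested. Acp5 and Dcstamp lost their calls without BI-275 (edgeR adjusted p = 0.0751 and 0.0512). The part of either list in the Mmp9 counts was not tested.

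Of the stromelysins, which degrade proteoglycans, fibronectin and other non-fibrillar matrix and can activate other MMPs, Mmp3 was the one called. It lies at chr9:7445822-7455975 on the plus strand. Mmp3 was at 14.4, 8.95, 49.1 and 4.46 CPM in uninjured MRL replicates 1 to 4 and at 204, 516, 199 and 2571 CPM in BI-270, in BI-272, in BI-274 and in BI-275. The lowest injured library exceeded the highest uninjured one, and Mmp3 rose 45.8-fold in MRL (log2 fold change 5.52, SE 1.16, edgeR adjusted p = 0.0199). In C57 it was at 5.40, 4.49, 10.6 and 5.71 CPM in uninjured replicates 1 to 4 and at 22.2, 48.9, 18.2 and 23.0 CPM in BI-181, in BI-183, in BI-184 and in BI-185. These groups did not overlap either, with a log2 fold change of 2.09 (SE 0.42) that missed the threshold (edgeR adjusted p = 0.055) and that DESeq2 called (adjusted p = 0.000102). The C57 value was 1.71 without BI-183 and 2.42 without uninjured C57 replicate 3, and of the 8 fits that each omitted a library 1 called it, the one without uninjured C57 replicate 4 (edgeR adjusted p = 0.0309).

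After injury every MRL library had more Mmp3 than every C57 library. The mean was 873 ± 1142 CPM (SD, n = 4) in injured MRL and 28.1 ± 14.0 CPM (SD, n = 4) in injured C57, a ratio of 31.1 (log2 difference 4.90, SE 0.94, edgeR adjusted p = 0.0258). BI-275 was 8.39 times the mean of the other 3 injured MRL libraries. Without it the injured MRL mean was 306 ± 182 CPM (SD, n = 3), the ratio to injured C57 was 10.9, and the log2 difference was 3.45 (edgeR adjusted p = 0.00939). With 1 library left out at a time, the difference lost its call in 4 of 8 fits, at an edgeR adjusted p of up to 0.0892 (without BI-181, BI-184, BI-185 or BI-272). The rise within MRL lost its call in 1 of 8 such fits, without uninjured MRL replicate 1 (edgeR adjusted p = 0.0505). On the log2 scale this rise was 3.99 without BI-275 and 6.53 without uninjured MRL replicate 3. The injury effects of the strains on Mmp3 differed by 3.36 on the log2 scale (SE 1.20), which was not called (edgeR adjusted p = 0.344). The difference was 1.85 without BI-275 and 4.42 without uninjured MRL replicate 3, and none of 16 such fits called it. Endothelial markers, 5 in all, also separated the injured strains, at 0.0824 to 24.1 CPM in MRL and 83.8 to 132 CPM in C57. The part of cell types in the Mmp3 levels was not tested.

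Mmp10, a stromelysin close to Mmp3 in sequence and in the same row (chr9:7502352-7510240, plus strand), was nearly absent from the counts. It had 1, 1, 1 and 4 counts in BI-270, in BI-272, in BI-274 and in BI-275, 1 count over the injured C57 libraries and 0 over the uninjured MRL libraries, and it was not tested. Uninjured C57 replicate 3 alone had more, with 44 counts (3.44 CPM). In BI-275, 46345 counts of Mmp3 stood beside 4 of Mmp10.

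Mmp11, known as stromelysin 3 and found in stroma of remodeling tissue, was called in neither strain. It lies on the minus strand of chromosome 10 (chr10:75923222-75936496) and shares 155 exon bases with Chchd10 on the other strand. Mmp11 was at 4.25, 4.16, 0 and 0 CPM in uninjured C57 replicates 1 to 4 and at 13.9, 29.9, 9.26 and 33.6 CPM in the injured C57 libraries in the order of their numbers. The C57 groups did not overlap, with a log2 fold change of 3.35 (SE 1.33) that missed the threshold (edgeR adjusted p = 0.285), and it was 2.93 to 3.94 and not called in any of 8 fits that left out 1 library. In MRL it was at 7.69, 5.31, 11.6 and 4.86 CPM in uninjured replicates 1 to 4 and at 4.45, 9.39, 7.78 and 0.166 CPM in BI-270, in BI-272, in BI-274 and in BI-275 (log2 fold change -0.44, SE 0.80, edgeR adjusted p = 0.762). BI-275, the highest library for Mmp3, had 3 counts of Mmp11. The injured groups overlapped, and the log2 difference of MRL against C57 was -2.05 (SE 0.83, edgeR adjusted p = 0.193). Chchd10 averaged 3.74 and 71.7 CPM in uninjured and injured C57, with overlap (log2 fold change 4.23, SE 2.06, edgeR adjusted p = 0.374). In MRL it averaged 0.791 and 0.866 CPM in uninjured and injured tendon. Because the strand setting of the counting is not given, reads of the shared bases cannot be assigned.

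Mmp12, the macrophage elastase, rose after injury in both strains. Its gene spans chr9:7344381-7369499 on the plus strand. Mmp12 had 0 counts in every uninjured C57 library and was at 4.11, 16.4, 44.8 and 32.1 CPM in BI-181, in BI-183, in BI-184 and in BI-185. Its injured C57 mean was at least 118-fold higher than the floor of 3 counts per uninjured library, and the rise was called (edgeR adjusted p = 0.0279). In MRL it had 1 count over the 4 uninjured libraries and was at 31.6, 36.7, 135 and 634 CPM in BI-270, in BI-272, in BI-274 and in BI-275. The ratio of pooled MRL counts was 10800 (exact 95% interval 1930 to 425000, counting error only) and 3900 without BI-275 (701 to 154000). This ratio has another base than the C57 bound. Against the floor of 3 counts per uninjured library, as in C57, the injured MRL mean was 1000 times the floor, and 325 times without BI-275. The rise was called (edgeR adjusted p = 0.00375), also in all 8 fits that left out 1 library. In C57 the call was kept in 2 of 8 such fits, those without uninjured C57 replicate 4 or BI-181, and lost without any other library, at an edgeR adjusted p of up to 0.106.

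Between injured strains the Mmp12 ranges overlapped. The means were 209 ± 287 CPM (SD, n = 4) in MRL and 24.4 ± 17.8 CPM (SD, n = 4) in C57 (log2 difference 3.04, SE 1.13, edgeR adjusted p = 0.177). Without BI-275 the injured MRL mean was 67.8 ± 58.4 CPM (SD, n = 3). All 8 macrophage markers together were at 741 to 1436 CPM in injured MRL and at 1672 to 2628 CPM in injured C57, and at 372 to 607 and 327 to 872 CPM in the uninjured groups of the same strains. Of these 8 genes, 4 rose after injury in C57, beside 0.908% of all genes tested, and 3 in MRL, beside 5.25%, of which Cd14 lost its call without BI-275 (edgeR adjusted p = 0.0605). Between the injured strains 4 of the 8 (Csf1r, C1qa, C1qb and C1qc) were called lower in MRL, beside 1.88% of all genes tested. BI-275, the highest library for Mmp12, had 745 CPM of the markers, and their part in the Mmp12 level was not tested. Mmp12 shares 157 exon bases with Mmp1b on the other strand, which had 0 counts in all 16 libraries.

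The collagenase Mmp13, which cuts fibrillar collagen and is made by chondrocytes, osteoblasts and stimulated fibroblasts, was uneven between libraries. It starts the row on chromosome 9 (chr9:7272514-7283331, plus strand). Mmp13 was at 33.7, 27.0, 7.02 and 152 CPM in BI-270, in BI-272, in BI-274 and in BI-275, against 0, 0.0728, 5.02 and 0 CPM in uninjured MRL replicates 1 to 4. The MRL groups did not overlap, and the log2 fold change of 5.38 (SE 1.51) missed the threshold (edgeR adjusted p = 0.0535). DESeq2 called it (adjusted p = 0.0401), and so did edgeR without uninjured MRL replicate 3 or without BI-274. The log2 fold change was 10.78 without uninjured MRL replicate 3, the 1 uninjured library above the floor, and 4.12 without BI-275. The value of 10.78 stands against 1 count over the remaining uninjured MRL libraries, so it depends on the prior count. In C57 it was at 0.311, 12.1, 0.504 and 0.967 CPM in BI-181, in BI-183, in BI-184 and in BI-185 and at 20.9 CPM in uninjured replicate 3, with 0 counts in the other 3 uninjured libraries, and it was not tested there. Chondrocyte markers, 7 in all, summed to 1212 CPM in BI-275, where Matn3 was at 0, and to 169 to 632 CPM in the other injured MRL libraries. In injured C57 they summed to 68.6 to 123 CPM, without overlap between the injured strains. Before injury they summed to 424 to 556 CPM in MRL and to 159 to 272 CPM in C57, also without overlap. Of the 5 tested, Acan and Hapln1 were called higher in injured MRL than in injured C57, beside 1.55% of all genes tested. Osteoblast markers, 7 in all, summed to 82.9 to 236 CPM in uninjured and 21.3 to 93.5 CPM in injured MRL, with 76.0 CPM in BI-275. In C57 the osteoblast markers summed to 34.3 to 62.3 CPM before and 9.57 to 53.3 CPM after injury. The part of either list in the Mmp13 and Mmp3 levels was not tested. In Mmp13 the injured strains differed by 3.91 on the log2 scale (SE 1.38, edgeR adjusted p = 0.16). With 1 library left out at a time this difference ranged from 2.69 without BI-275 to 6.47 without BI-183, and it was called in 1 of 8 fits, the one without BI-183 (edgeR adjusted p = 0.0341).

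**Figure D1:**
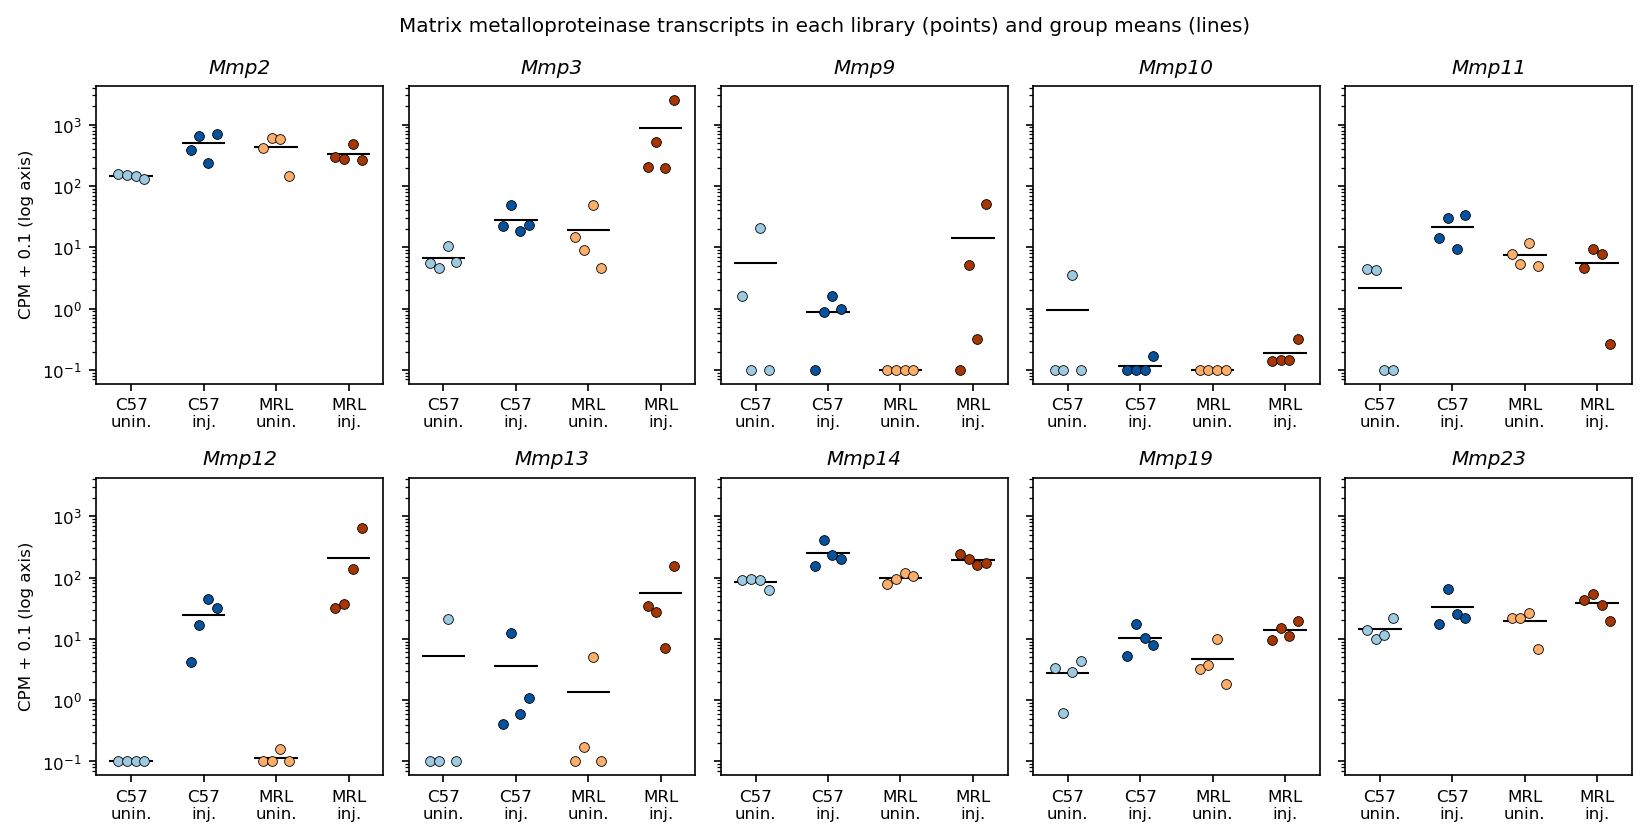
CPM plus 0.1 on a log axis for each of the 10 genes, with 1 point per library, in the order of library numbers, and a line at the group mean, for uninjured (unin.) and injured (inj.) C57 and MRL tendon; points at 0.1 had 0 counts. Mmp3 in injured MRL lies between 199 and 2571 CPM, above every library of the other groups, while Mmp12 is near 0 in both uninjured groups.

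The membrane-bound Mmp14, which cuts collagen at the cell surface and activates pro-Mmp2, had all injured libraries above all uninjured ones in both strains and was called in neither. It lies at chr14:54431612-54445364 on the plus strand. Mmp14 was at 90.9, 95.7, 89.4 and 61.9 CPM in uninjured C57 replicates 1 to 4 and at 154, 416, 231 and 203 CPM in the injured C57 libraries in the order of their numbers. The groups did not overlap, but the log2 fold change of 1.56 (SE 0.31) missed the threshold (edgeR adjusted p = 0.0556). It was 1.24 without BI-183 and 1.78 without BI-181, and 2 of 8 fits that left out 1 library called it, those without uninjured C57 replicate 4 (edgeR adjusted p = 0.0291) or BI-181 (edgeR adjusted p = 0.0468). In MRL it was at 79.7, 93.5, 118 and 105 CPM in uninjured replicates 1 to 4 and at 245, 201, 160 and 171 CPM in BI-270, in BI-272, in BI-274 and in BI-275. There the groups did not overlap and the adjusted p was 0.0096, but the log2 fold change of 0.98 (SE 0.19) lay just under the limit of 1, so it was not called; it was called in 4 of 8 fits that left out 1 library. With uninjured C57 replicate 4 and BI-181 left out, the rise in C57 was called (log2 fold change 1.67, edgeR adjusted p = 0.00616).

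Mmp19, a broad-specificity secreted member, and Mmp23, a membrane member with an unusual domain order, were called in neither strain. Mmp19 (chr10:128790910-128800824, plus strand) was at 0.520 to 4.33 CPM (median 2.99) in uninjured C57 and at 5.11 to 17.2 CPM (median 9.01) in injured C57, without overlap (log2 fold change 1.88, SE 0.66, edgeR adjusted p = 0.231, and 1.52 to 2.21 with 1 library left out, never called). In MRL it was at 1.75 to 9.67 CPM (median 3.41) before and 9.51 to 19.3 CPM (median 13.0) after injury, and the ranges just overlapped (log2 fold change 1.59, SE 0.51, edgeR adjusted p = 0.0729). Without uninjured MRL replicate 3 the MRL value was 2.25 and was called (edgeR adjusted p = 0.0214). Mmp19 shares 789 exon bases with Tmem198b and 212 with the antisense gene Gm47093, both on the other strand. Tmem198b averaged 8.54 and 24.4 CPM in uninjured and injured C57 and 13.0 and 16.2 CPM in uninjured and injured MRL, so the Mmp19 values are uncertain to the extent that shared reads were counted.

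Mmp23 (chr4:155650655-155653384, minus strand) was at 9.82 to 22.04 CPM (median 12.7) in uninjured and 17.3 to 65.5 CPM (median 23.5) in injured C57, with overlap. It was at 6.77 to 26.5 CPM (median 21.8) in uninjured and 19.1 to 53.6 CPM (median 39.3) in injured MRL, also with overlap. The log2 fold changes were 1.16 (SE 0.46, edgeR adjusted p = 0.284) in C57 and 0.98 (SE 0.41, edgeR adjusted p = 0.145) in MRL. The C57 value was 0.6 without BI-183, and it was 1.72 and called with uninjured C57 replicate 4 and BI-181 both left out (edgeR adjusted p = 0.0377). By RPKM, Mmp23 held position 3 of the 10 genes in uninjured C57 and position 4 in injured C57 and in uninjured MRL. In injured MRL it held position 6, and position 4 without BI-275.

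**Figure D2:**
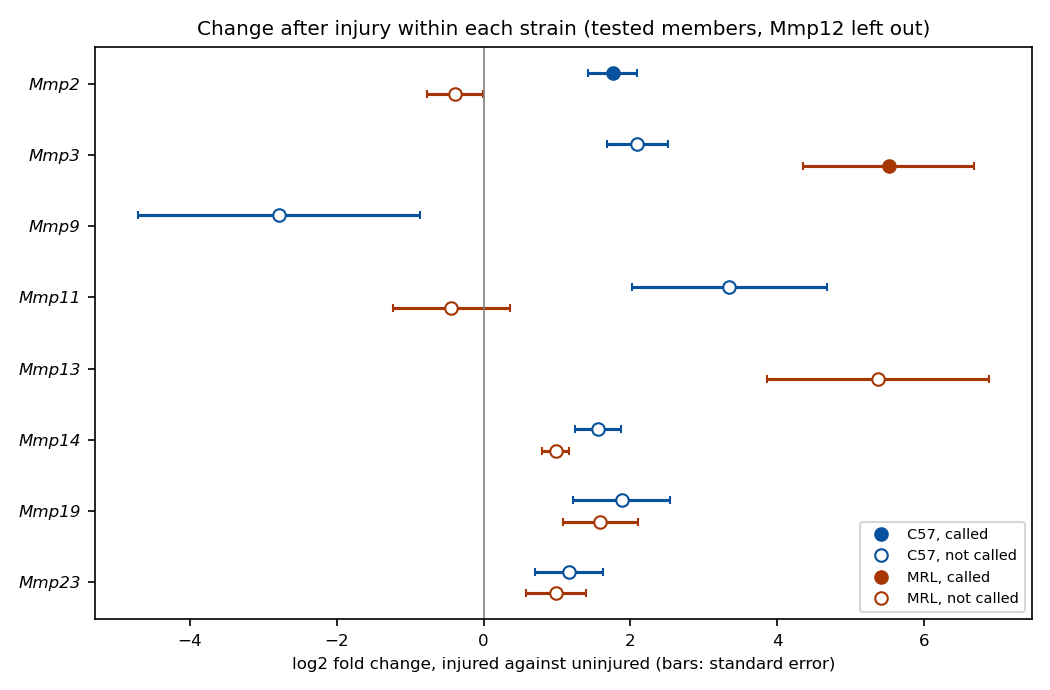
Log2 fold change of injured against uninjured tendon with its standard error (bars) in C57 and MRL for the members that passed the expression filter in a strain; filled points were called. Mmp12, with 0 or 1 count in the uninjured groups, is left out because its fitted fold change depends on the prior count, and Mmp10 was not tested.

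Counted over the family, 8 of 10 members were tested in each strain. In C57, 2 of them were called higher (Mmp2 and Mmp12), beside 0.908% of all 14424 genes tested. In MRL, 2 were called higher (Mmp3 and Mmp12), beside 5.25% of 14274 genes. None was called lower in either strain, beside 0.166% of genes in C57 and 2.15% in MRL. In C57, 6 of the 8 tested members (Mmp2, Mmp3, Mmp11, Mmp12, Mmp14 and Mmp19) had all injured libraries above all uninjured ones, as had 7.11% of all genes tested. In MRL, 4 of the 8 did (Mmp3, Mmp12, Mmp13 and Mmp14), as had 13.3% of all genes tested. The median log2 fold change over the tested members was 1.82 in C57 and 1.29 in MRL, and over all genes tested it was -0.05 and -0.03. Mmp12, with 0 or 1 count in the uninjured groups, passed the expression filter through its injured libraries alone. It could therefore only count as higher, and it is part of these counts and medians in both strains. The 10 genes were also chosen with earlier results of these data known, so the shares beside them are no test of the family. DESeq2 called 5 members in each strain, and 907 genes in C57 and 1819 in MRL.

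Between the injured strains, 9 members were tested and 1, Mmp3, was called higher in MRL, beside 1.55% of 14626 genes. No member was called lower in MRL, beside 1.88% of genes. Mmp3 was also the only one of the 9 with all injured MRL libraries above all injured C57 libraries, as had 8.92% of genes. Between the uninjured strains none of 6 tested members was called, and 0% of genes were (edgeR called 0 of 14055 genes, of which 1106 had an unadjusted p under 0.05; DESeq2 called 104). For the difference of the injury effects, none of 9 tested members was called, and 0% of 15947 genes were. An unadjusted edgeR p under 0.05 was found for 1939 genes, and DESeq2 called 198, with Mmp2 and Mmp9 among them. The edgeR value for Mmp9 was 13.6 on the log2 scale (SE 4.30, adjusted p = 0.339). With 0 counts of Mmp9 in uninjured MRL, this value depends on the prior count. Uninjured C57 replicate 3 held 265 of 287 uninjured C57 counts of Mmp9, and BI-275 held 912 of 1028 injured MRL counts. Both within-strain comparisons use libraries of their own. The comparison of injured strains shares its injured libraries with them.

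The members also differed in which injured library was highest. In MRL, BI-275 was highest for 6 of 10 members (Mmp3, Mmp9, Mmp10, Mmp12, Mmp13 and Mmp19) and lowest for 3 (Mmp2, Mmp11 and Mmp23). Its 4 synovial lining markers summed to 12040 CPM, against 5688 to 9207 CPM in the other injured MRL libraries and 6678 to 13630 CPM in injured C57. Its 7 tendon fibroblast markers summed to 19850 CPM, against 28940 to 37210 CPM in the other injured MRL libraries. The part of these markers was not tested. Among the injured MRL libraries the highest was 12.9 times the lowest for Mmp3, 20.1 times for Mmp12, 21.6 times for Mmp13 and 56.4 times for Mmp11, but 1.53 times for Mmp14, 1.85 times for Mmp2 and 2.03 times for Mmp19. In C57, BI-183 was highest for 5 of the 9 members with more than 3 counts in the group (Mmp3, Mmp13, Mmp14, Mmp19 and Mmp23); this library also held muscle transcripts, whose part was not tested. BI-184 was highest for Mmp9 and Mmp12 and lowest for Mmp2, Mmp3 and Mmp11. BI-181, with the most muscle transcripts, was lowest for 6 of those 9. The spread among injured C57 libraries was 2.69 times for Mmp3, 10.9 times for Mmp12 and 39.0 times for Mmp13. Mmp14 had a coefficient of variation of 19.5% in injured MRL and 45.6% in injured C57, and Mmp3 had 131% and 50.0%.

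**Figure D3:**
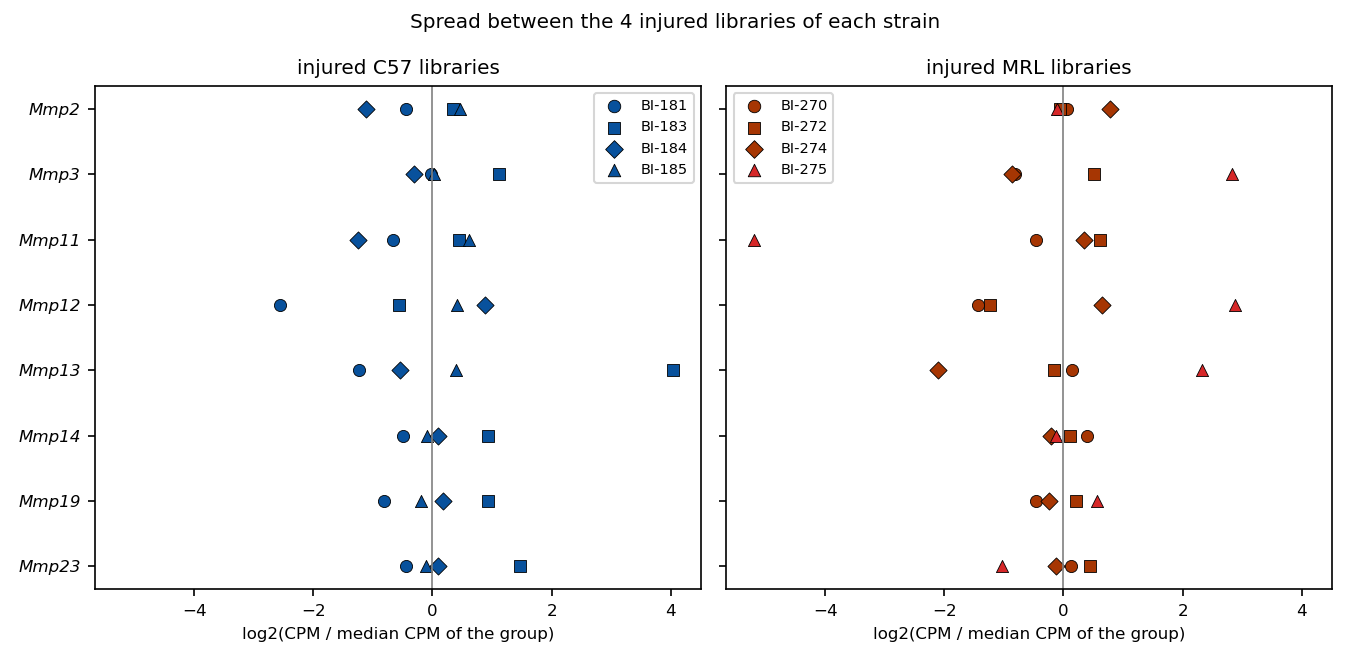
Log2 ratio of each injured library's CPM to the median of its group for 8 members (Mmp9 and Mmp10, with zeros, are left out), with 1 symbol per library. BI-275 stands to the right for Mmp3, Mmp12 and Mmp13 and to the left for Mmp11, and in C57 the library far to the right for Mmp13 is BI-183 at 12.1 CPM.

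Per exon length, the summed level of the 10 genes was 72.7 ± 9.73 RPKM in uninjured C57, 235 ± 95.6 in injured C57, 168 ± 75.0 in uninjured MRL and 690 ± 682 in injured MRL (SD, n = 4 each). Without BI-275 the injured MRL sum was 351 ± 87.0 RPKM (SD, n = 3). In uninjured C57, injured C57 and uninjured MRL the order began with Mmp2 and Mmp14, and the libraries' ranges of these 2 genes did not overlap. Mmp2 made 49.5% to 84.5% of the sum in the 12 libraries of these groups, and Mmp3 made 2.35% to 11.5%. In injured MRL, Mmp3 came first, at 34.1% to 83.7% of the sum, and Mmp2 made 4.55% to 44.4%. The ranges of Mmp3 and Mmp2 overlapped there, and Mmp3 was above Mmp2 in 3 of 4 libraries, the exception being BI-274. Mmp14 and Mmp12 followed in injured MRL, at 32.6 ± 6.37 and 28.9 ± 39.7 RPKM (SD, n = 4), and their ranges overlapped. Without BI-275 Mmp12 averaged 9.37 ± 8.06 RPKM (SD, n = 3) and came after Mmp23, at 18.8 ± 3.82 RPKM (SD, n = 3). Among 47139 genes by RPKM, Mmp3 ranked between 29 (BI-275) and 417 (BI-274) in the injured MRL libraries and between 1667 (BI-183) and 3806 (BI-184) in the injured C57 libraries.

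**Figure D4:**
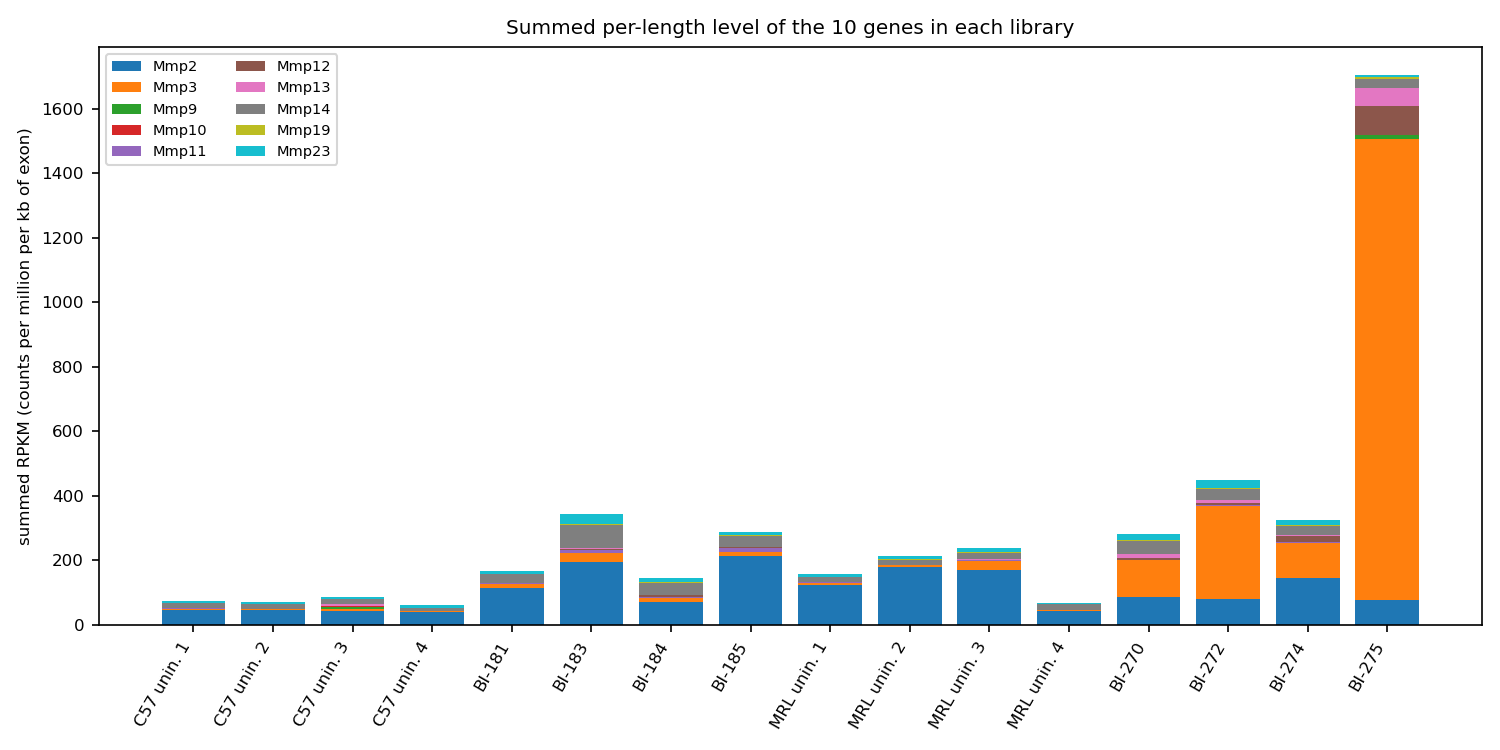
Stacked bars of the RPKM of the 10 genes in each of the 16 libraries, from 0. Mmp2 is the largest part of every bar outside injured MRL, and the bar of BI-275 reaches 1707 RPKM, of which Mmp3 is 83.7%.

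The row on chromosome 9 runs Mmp13, Mmp12, Mmp1b, Mmp3, Mmp1a, Mmp10, Mmp8, Mmp27, Mmp20 and Mmp7. Of these, Mmp1a, Mmp1b, Mmp20 and Mmp7 had 0 counts in all 16 libraries. Mmp8, the neutrophil collagenase, had 40 counts in BI-275, 9 in BI-274 and 18 in uninjured C57 replicate 3 and 0 in the other 13 libraries. Mmp27 was at 0.315 to 4.21 CPM in injured C57, against at most 0.0675 CPM in uninjured C57, without overlap, and was not tested there. In MRL it was at 0.610 to 6.54 CPM after injury and at 2.69 CPM in uninjured replicate 3, with 0 counts in the other 3 uninjured libraries (log2 fold change 1.87, SE 1.56, edgeR adjusted p = 0.471). Of the 13 other family members, 4 were tested in each strain and none was called. Of all genes tested, 0.908% were called higher and 0.166% lower in C57, and 5.25% and 2.15% in MRL. The medians of these family members were -0.11 in C57 and 0.05 in MRL on the log2 scale. The one nearest the threshold was Mmp28, an epidermal and stromal member, at 9.38 to 13.7 CPM in uninjured and 3.46 to 5.25 CPM in injured C57 (log2 fold change -1.51, SE 0.33, edgeR adjusted p = 0.0671).

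**Figure D5:**
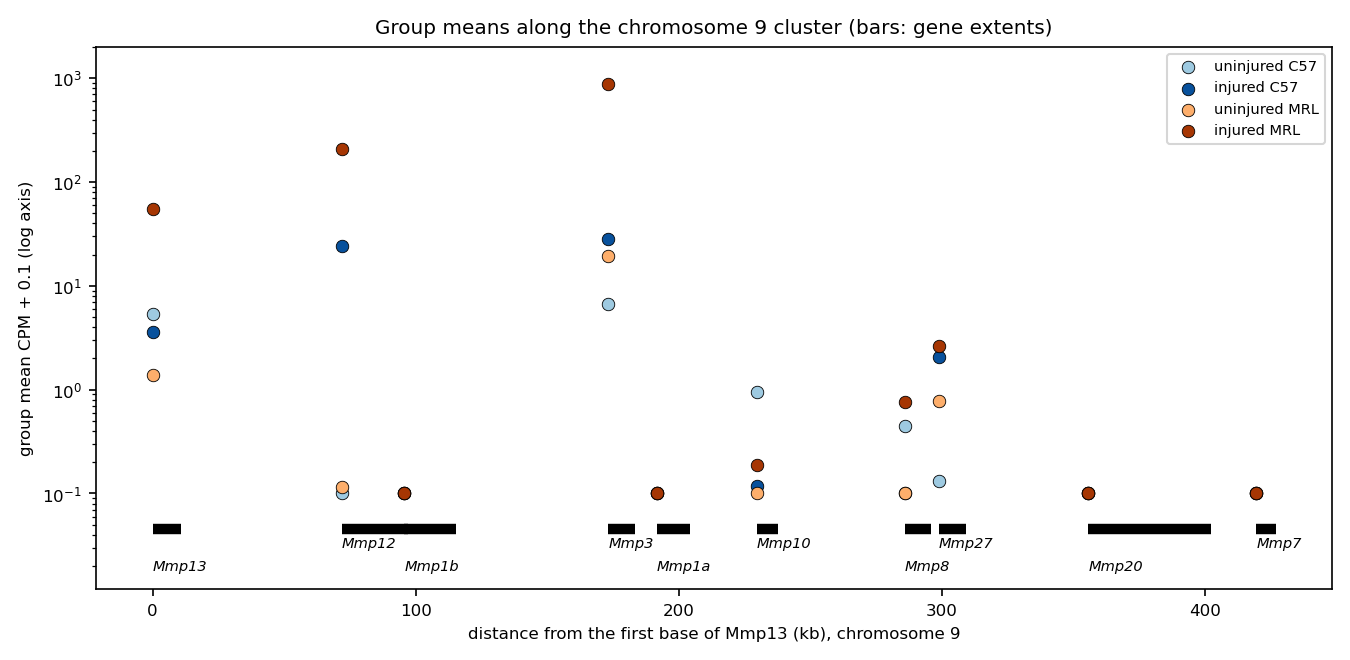
Group mean CPM plus 0.1 on a log axis for the 10 genes of the chromosome 9 row, against distance in kb from the first base of Mmp13; black bars are gene extents and points at 0.1 had 0 counts. Mmp13, Mmp12 and Mmp3 are highest in injured MRL, and Mmp1b, Mmp1a, Mmp20 and Mmp7 had no counts.

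Among the inhibitors, Timp1, an injury-induced inhibitor of most MMPs, was called higher in MRL, at 62.4 ± 20.4 CPM before and 1943 ± 2129 CPM (SD, n = 4) after injury (log2 fold change 4.97, SE 0.76, edgeR adjusted p = 0.00466). Timp1 was highest in BI-275, at 5066 CPM, as Mmp3 was. Without BI-275 the injured MRL mean was 901 ± 542 CPM (SD, n = 3) and the log2 fold change was 3.85 (edgeR adjusted p = 0.00212). In C57 it was at 58.4 ± 36.6 and 301 ± 167 CPM (SD, n = 4), without overlap (log2 fold change 2.36, SE 0.62, edgeR adjusted p = 0.125). Timp4 fell by 3.54 (edgeR adjusted p = 0.0408, and 0.114 without BI-275) and Reck, a membrane-anchored inhibitor, fell by 1.33 on the log2 scale in MRL (edgeR adjusted p = 0.00172). Of 5 inhibitors tested, 1 was called higher and 2 lower in MRL and none in C57, with medians of -0.46 and -0.66, beside 5.25% of all genes higher and 2.15% lower in MRL and 0.908% and 0.166% in C57. Timp2, the inhibitor that also takes part in pro-Mmp2 activation, had 3042 ± 95.2 and 2201 ± 878 CPM (SD, n = 4) in uninjured and injured MRL and was not called.

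Of 7 tested activators of MMP proenzymes, 1 was called higher and 1 lower in MRL and none in C57, with medians of 0.08 and 0.23, beside the same shares of all genes. Plaur, the urokinase receptor, rose by 2.24 on the log2 scale (SE 0.31, edgeR adjusted p = 0.00247), and the proprotein convertase Pcsk6 fell by 1.35 (edgeR adjusted p = 0.0148). Of 7 AP-1 subunits, Fosl1 rose in MRL from 2.56 ± 1.25 to 29.9 ± 13.8 CPM (SD, n = 4; log2 fold change 3.55, SE 0.45, edgeR adjusted p = 0.00186), and Jun and Jund fell by 1.33 and 1.29 (edgeR adjusted p = 0.0386 and 0.0211), of which Jun lost its call without BI-275 (edgeR adjusted p = 0.0664). Fosl1 was at 9.53 ± 4.54 CPM (SD, n = 4) in injured C57 and was not called there, nor was any other AP-1 subunit, with medians of -1.29 in MRL and -0.66 in C57. The AP-1 counts stand beside 5.25% of all genes called higher and 2.15% called lower in MRL, and 0.908% and 0.166% in C57.

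Of 14 matrix genes whose proteins MMPs cut, 5 were called higher in MRL and none in C57, with medians of 0.89 and 0.88, beside 5.25% of all genes called higher in MRL and 0.908% in C57. Tnc, tenascin C of provisional matrix, rose by 6.67 on the log2 scale in MRL, from 1.02 to 107 CPM (edgeR adjusted p = 0.000876). Fn1, fibronectin, rose by 1.68 (edgeR adjusted p = 0.0277), Acan, the proteoglycan aggrecan, by 1.91 (edgeR adjusted p = 0.0421) and the collagen chain Col5a1 by 1.53 (edgeR adjusted p = 0.00524). Without BI-275, Fn1 and Acan lost their calls (edgeR adjusted p = 0.0617 and 0.115).

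By the pattern of log2 CPM over all 16 libraries, genes most like several members were named by Pearson's r among 15947 genes, with no test, since libraries of a group share strain, injury and depth. Fcgr2b (r = 0.952), Sirpb1c (0.951) and Tyrobp (0.947), genes of myeloid cells, were most like Mmp12. Cthrc1 (0.944), a secreted protein of remodeling fibroblasts, Aif1 (0.937), a gene of myeloid cells, and C1qtnf6 (0.935) were most like Mmp14. Adamts12 was second for Mmp11 (0.915), and Icam1 was first for Mmp2 (0.864). Mcemp1 was first (0.877) and Mmp3 second (0.86) for Mmp13. Between members, r was 0.86 for Mmp3 and Mmp13, 0.82 for Mmp3 and Mmp12 and 0 for Mmp3 and Mmp11.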

How the data were processed

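The authors sequenced single-end reads, and the submitters' processing notes name Trimmomatic 0.36, STAR 2.5.2b, GRCm38.p5, Subread 1.5.0p3, featureCounts and DESeq2 1.14.1. Which annotation and strand setting were used for counting is not given in the sources used here. The methods describe pre-amplification of low-input RNA, the labels a TruSeq kit, and neither names molecular identifiers, so intervals cover counting error only. The deposited table holds whole-number counts for 49568 symbols in 16 libraries. The labels do not tie libraries to animals, the methods state 4 animals per experimental group, and p-values measure the spread between these libraries. The 10 genes, gene lists and markers were chosen with earlier results of these data known. All 10 genes are described; of each list at most 4 called members are named, and some of the genes with a like pattern; 1 item is not reported here.

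Each comparison was fitted on its own 8 libraries with edgeR 4.0.16 in R 4.3.3 (robust quasi-likelihood F test, TMM, expression filter, Benjamini-Hochberg over all genes tested), and called where the adjusted p was under 0.05 and the log2 fold change beyond 1 in either direction. The interaction used all 16 libraries and the adjusted p alone. CPM used TMM-adjusted library sizes over all 16 libraries, and log2 CPM a prior count of 2. Exon lengths and gene coordinates came from GENCODE M21 on GRCm38, promoters from RefSeq on GRCm38. A fold change against a group at 0 was computed against 3 counts per library. The tests were first tested on simulated data. The alternatives were DESeq2 1.42.0, other size factors, other filters, one fit over all 16 libraries, the replicate block and leaving out libraries; 3 sets of left-out libraries, and the folds, list genes and level order without BI-275, were chosen after seeing the data. Replicate numbers of uninjured libraries mark no shared animal or batch.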

Additional observations from a re-analysis of the deposited data

Results flagged for a closer look

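Within groups of 4 libraries, single libraries far from the other 3 on the log2 CPM scale (Dixon's criterion) were found in 6 of 35 sets of 1 gene and 1 group with more than 3 counts in a library. Chance gives about 1 in 20 sets, a rate that does not hold where most libraries are at or near 0. Of the 6, 4 came from the 6 sets with at most 2 libraries above 3 counts (Mmp10 and Mmp13), where a single library with counts stands apart by construction, and 2 from the other 29 sets. Uninjured C57 replicate 3 stood apart for Mmp13, at 20.9 CPM, and for Mmp10, at 3.44 CPM, with 0 counts of both genes in the other 3 uninjured C57 libraries. Uninjured MRL replicate 3 stood apart for Mmp13, at 5.02 CPM, with at most 0.0728 CPM in the others. BI-275 stood apart for Mmp10, at 0.222 CPM, from 4 counts. Uninjured C57 replicate 4 had the lowest Mmp14 of its group, at 61.9 CPM against 89.4 to 95.7 CPM. Uninjured MRL replicate 4 had the lowest Mmp23 of its group, at 6.77 CPM against 21.5 to 26.5 CPM.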

How the results depend on the processing

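The 37 alternative values of the levels, with CPM on total counts, moved by less than the SD of their group. In C57, 155 genes and 2 members were called; DESeq2 called 907 and 5, median-of-ratios factors called 4 members, one fit over all 16 libraries called 367 genes, and without uninjured C57 replicate 4 and BI-181, left out after seeing the data, 867 genes and 6 members were called. In MRL, 1057 genes and 2 members were called; DESeq2 called 1819 and 5, and with no filter 1 member was called. Between injured strains, 502 genes and 1 member were called; DESeq2 called 1490 and 2, one fit over all 16 libraries called 227 genes, and with no filter 0 members were called. Between uninjured strains 0 genes and 0 members were called; DESeq2 called 104 and 1, and with no filter 1 gene was called. For the interaction 0 genes were called; DESeq2 called 198 genes and 2 members. The cause of these differences was not tested.

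Leaving out each library in turn gave 10 to 750 genes and 0 to 4 members in C57 (10 without uninjured C57 replicate 3, 750 without uninjured C57 replicate 4), 689 to 1260 genes and 1 to 5 members in MRL, 231 to 481 genes and 0 to 2 members between injured strains, 0 to 3 genes and 0 to 1 members between uninjured strains, and 0 for the interaction. Log2 values that changed sign in such a fit, none of them called, ranged from -3.25 to 0.67 for Mmp9 in C57 (0.67 without uninjured C57 replicate 3) and from -0.04 (without BI-181) to 0.77 for Mmp23 between injured strains. For the interaction they ranged from -3.52 (without uninjured C57 replicate 3) to 11.28 for Mmp13, from -0.68 to 0.33 for Mmp19 (0.33 without uninjured MRL replicate 3, 0.04 without BI-183), from -0.53 to 0.37 (without BI-183) for Mmp23 and from -0.26 (without BI-275) to 3.07 for Mmp12. The interaction values of Mmp12, and both ends for Mmp13, stand against uninjured groups with 0 or 1 count and depend on the prior count. Mmp19 between injured strains was -0.04 without BI-181 and BI-275. The uninjured replicate numbers did not pair the libraries (correlations of same-numbered deviations -0.26, 0.02, -0.1 and -0.23), and with the replicate block 0 genes and 0 members were called. At these depths Mmp9, Mmp10, Mmp12 and Mmp13 had 3 counts or fewer in most libraries of at least 1 group, and levels under this floor were not told apart from 0.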
